A study of Mus musculus with 16 samples.

Results

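Of 48440 genes listed in a count table of mouse ear skin, 10 were followed here by name as genes of sebaceous lipid and of the cells that make it: Far1, Far2, Awat1, Awat2, Dgat2l6, Dgat2, Soat1, Mc5r, Krt79 and Mgst1. They are defined by symbol, with earlier results of these data known, and all 10 passed the low-count filter, which kept 17604 genes. RNA was sequenced from ear skin of B6 mice in 4 groups of 4. HFD_PMA mice had a high-fat diet for 8 weeks and a dose of 200 ng PMA on the ear, which was collected 24 h later. PMA is a plant-derived activator of protein kinase C that inflames skin. ND_PMA mice had normal diet and the same PMA dose, HFD_cont mice had the high-fat diet and untreated ears, and ND_cont mice had normal diet and untreated ears. The sources used here state neither the age of the mice nor whether untreated ears received the solvent. The design text gives 4 mice per group, 1 library each, and no other difference between them.

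Sebaceous glands sit beside hair follicles and release sebum when their lipid-filled cells, the sebocytes, burst. In mice much of sebum is wax ester, which is made when a fatty acyl-CoA reductase turns a fatty acid into a fatty alcohol and a wax synthase joins that alcohol to another fatty acid. Triglycerides and cholesterol esters are made beside it by related or separate acyltransferases, and in mice melanocortin signals increase sebum output.

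Library totals ran from 7739487 to 15571389 counts, so 1 CPM, the unit used below (counts divided by the TMM-scaled library total, times 1000000), stood for 7.98 to 15.5 counts. All 6 keratinocyte markers were present in every group, as in skin, and all libraries had Y-linked Ddx3y at 45.3 to 86.5 CPM and Xist at no more than 0.769 CPM. Library IDs began with RHP in 11 libraries and with RHS in 5, namely all 4 ND_cont libraries and replicate 1 of HFD_cont. The sources used here do not say what the prefix means, and in comparisons with ND_cont it cannot be told apart from the groups except through that 1 library. Hair shaft and inner root sheath markers summed to 3061 CPM in HFD_PMA replicate 1 and to 2372, 1702 and 623 CPM in HFD_cont replicates 1, 2 and 4, against 10.1 to 154 CPM in the other 12 libraries. In whole skin, fewer cells of a type and less RNA per cell cannot be told apart.

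Awat1, Awat2 and Dgat2l6 lie near each other on chromosome X (GRCm38, GENCODE M21). Awat2 covers 100402221 to 100442717 on the minus strand, Dgat2l6 100524838 to 100546144 and Awat1 100572251 to 100578205, both on the plus strand. The 3 genes span 175985 bases, with 26106 bases between Dgat2l6 and Awat1. Between Awat2 and Dgat2l6 are 82120 bases, which hold another gene, Igbp1. The other members are scattered. Dgat2 lies on chromosome 7 at 99153658 to 99182719 and Far1 on the same chromosome at 113513834 to 113571511. Far2 and Mgst1 lie on chromosome 6, at 148047259 to 148182758 and 138140316 to 138156755. Soat1 was placed on chromosome 1 at 156424525 to 156474331 and Krt79 on chromosome 15 at 101929332 to 101940324.

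Promoter windows from RefSeq (GRCm38.p6, 250 bases before to 50 after an annotated start) were taken by symbol for 8 members, in 10 windows. Dgat2 had no window in the set used, and Mc5r was left out of the search. The 250 bases before the RefSeq start are shown for the neighbours Awat1 and Dgat2l6, whose levels varied together, and for Far1 and Far2, whose levels moved in opposite directions in ND skin. For Far2 the GENCODE M21 start at 148047259 lies within the bases shown, so part of them is inside the gene as placed above. Capitals mark matches to the AP-1 motif TGACTCA, searched like all motifs on both strands. They also mark CCAAT boxes, which read ATTGG where the match is on the minus strand.
Awat1, chrX:100571997-100572246, plus strand: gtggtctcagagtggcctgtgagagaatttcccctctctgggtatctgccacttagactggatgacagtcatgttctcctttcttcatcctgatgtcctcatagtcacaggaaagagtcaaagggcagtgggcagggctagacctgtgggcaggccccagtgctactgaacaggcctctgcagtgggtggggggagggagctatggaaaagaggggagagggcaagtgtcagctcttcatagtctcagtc
Dgat2l6, chrX:100524588-100524837, plus strand: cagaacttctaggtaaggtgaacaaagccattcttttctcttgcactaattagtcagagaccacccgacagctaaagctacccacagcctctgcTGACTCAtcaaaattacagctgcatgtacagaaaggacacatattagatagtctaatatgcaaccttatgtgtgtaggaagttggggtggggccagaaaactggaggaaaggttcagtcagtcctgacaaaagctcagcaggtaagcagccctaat
Far1, chr7:113513584-113513833, plus strand: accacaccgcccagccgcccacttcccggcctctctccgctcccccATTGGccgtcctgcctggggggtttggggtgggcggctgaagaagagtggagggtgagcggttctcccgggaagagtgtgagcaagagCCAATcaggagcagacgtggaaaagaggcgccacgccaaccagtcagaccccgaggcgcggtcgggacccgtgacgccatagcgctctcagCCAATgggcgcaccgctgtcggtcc
Far2, chr6:148047166-148047415, plus strand: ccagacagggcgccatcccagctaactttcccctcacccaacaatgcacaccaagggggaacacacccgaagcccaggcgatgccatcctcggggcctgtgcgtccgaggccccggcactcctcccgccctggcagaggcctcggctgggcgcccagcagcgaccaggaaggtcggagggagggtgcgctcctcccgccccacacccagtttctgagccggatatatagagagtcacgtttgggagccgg
TGACTCA, the motif of AP-1 factors, which PMA is known to activate, occurred once among the 10 windows, in that of Dgat2l6, with its first base 156 bases before the start. Of 32851 mouse windows of the same length, 5.2% held it. CCAAT occurred 3 times in the Far1 window and 0 times in the Far2 window, against 37.4% of all windows with at least 1 match, and the single match of Awat1 lay after the start, beyond the bases shown. GGGCGG, the GC box, matched 4 times in the Far1 window and 2 times in the Far2 window, against 35.7% of all windows, and 0 times in those of Awat1 and Dgat2l6. Neither TATAAA (13.6% of windows) nor the DR1 motif of nuclear receptors (0.0396%) matched any of the 10 windows.

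Per length (RPKM, CPM per kilobase of the deposited gene length, mean over 16 libraries), the level of Krt79, a keratin of the follicle canal and sebaceous duct in mice, came first at 391. Dgat2, which makes triglyceride, followed at 265 and the wax synthase Awat1 at 127. The deposited length of Krt79 was 2097 bases, against 4753 exon bases in GENCODE M21, and over the longer length its level was 173 RPKM, below that of Dgat2. The lengths of Mc5r differed too, at 1162 and 3904 bases, which gave it 0.630 RPKM over the longer one, and it stayed the lowest of the 10. Mgst1 (73.3) and Far2 (70.03) were next to each other, with ranges over libraries of 48.6 to 115 and 29.7 to 143 RPKM that overlapped. Soat1 had a mean level of 22.6, Far1 13.1 and Dgat2l6 10.4 RPKM, and the library ranges of these neighbours overlapped too. The second wax synthase, Awat2, averaged 4.46 RPKM and Mc5r 2.12 RPKM. Replicates of Dgat2 were the tightest, with a mean within-group coefficient of variation of 11.7%, and those of Mc5r (43.0%) and Awat2 (42.2%) the widest.

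**Figure D1:**
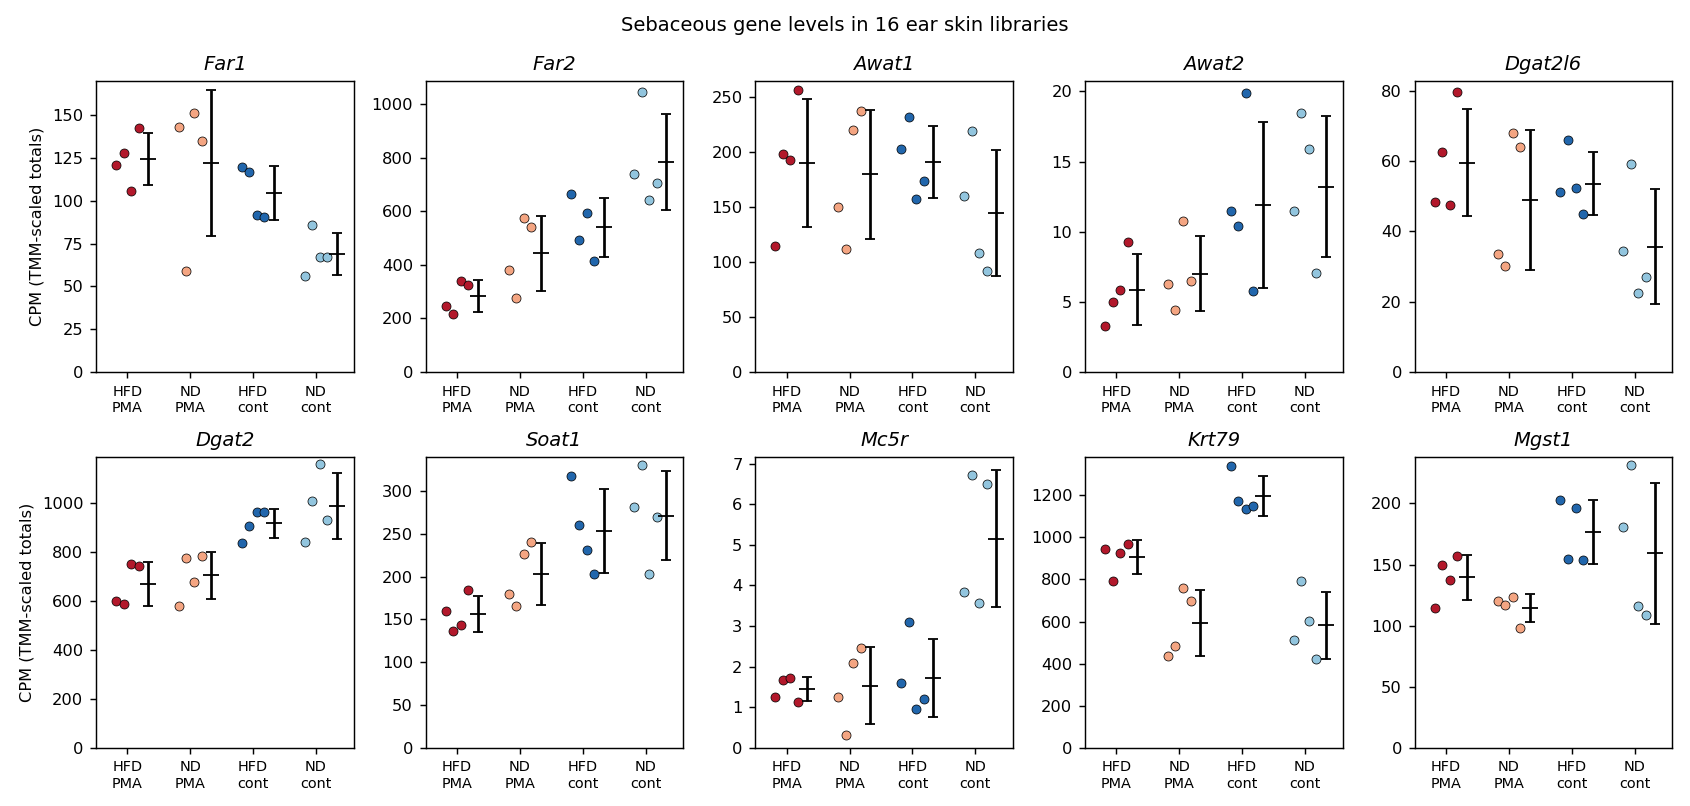
CPM on TMM-scaled totals of the 10 sebaceous genes in each of 16 libraries (points), with the mean and SD of each group of 4 (bars beside the points). Far2 and Dgat2 sat lower in both PMA-treated groups than in untreated groups of the same diet, and Krt79 sat higher in HFD_cont (1133 to 1338 CPM) than in ND_cont (419.6 to 795 CPM).

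With PMA 3 members were lower in HFD mice, Far2, Soat1 and Dgat2, and 0 were higher, at an edgeR quasi-likelihood adjusted p below 0.05. Over all genes tested, 4.6% were called lower and 7.34% higher in that comparison. In ND mice 3 members were lower with PMA, Far2, Dgat2 and Mc5r, and 1 was higher, Far1, where 3.99% of all genes were called lower and 8.96% higher. Higher genes made up 69.2% of all calls there, against 58.5% with upper-quartile factors and 58.4% by DESeq2. All 4 calls in ND mice were lost with the library prefix as a covariate, where 0 members were called. Over all genes, calls there fell to 388 higher and 65 lower, from 1577 and 702. In HFD mice all 3 calls held without HFD_cont replicate 1, which leaves only RHP libraries in that comparison. The fit still held the ND_cont libraries. Leaving out the 4 libraries highest in hair markers leaves 1 HFD_cont library, which is too few to decide the calls. There, log2 fold changes in HFD mice were -1.02 for Far2, -0.58 for Soat1 and -0.48 for Dgat2.

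With high-fat diet 1 member was higher in untreated skin, Krt79, and 0 were lower, where 2.87% of all genes were called higher and 1.06% lower. Without the 4 libraries highest in hair markers, which leaves 1 HFD_cont library, Krt79 had a log2 fold change of 0.98. In PMA-treated skin 0 of the 10 members were called with diet by edgeR, where 0.943% of all genes were called higher and 1.26% lower. An unadjusted p below 0.05 was reached by 3 members there, and DESeq2 called 1, Krt79. The interaction, which asks whether diet changed the PMA effect, called 0 members, beside 0% of all genes higher and 0.00568% lower. Of the members 0 had an unadjusted p below 0.05 and DESeq2 called 0, so a difference between diets in the PMA effect was not detected for any of them.

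**Figure D2:**
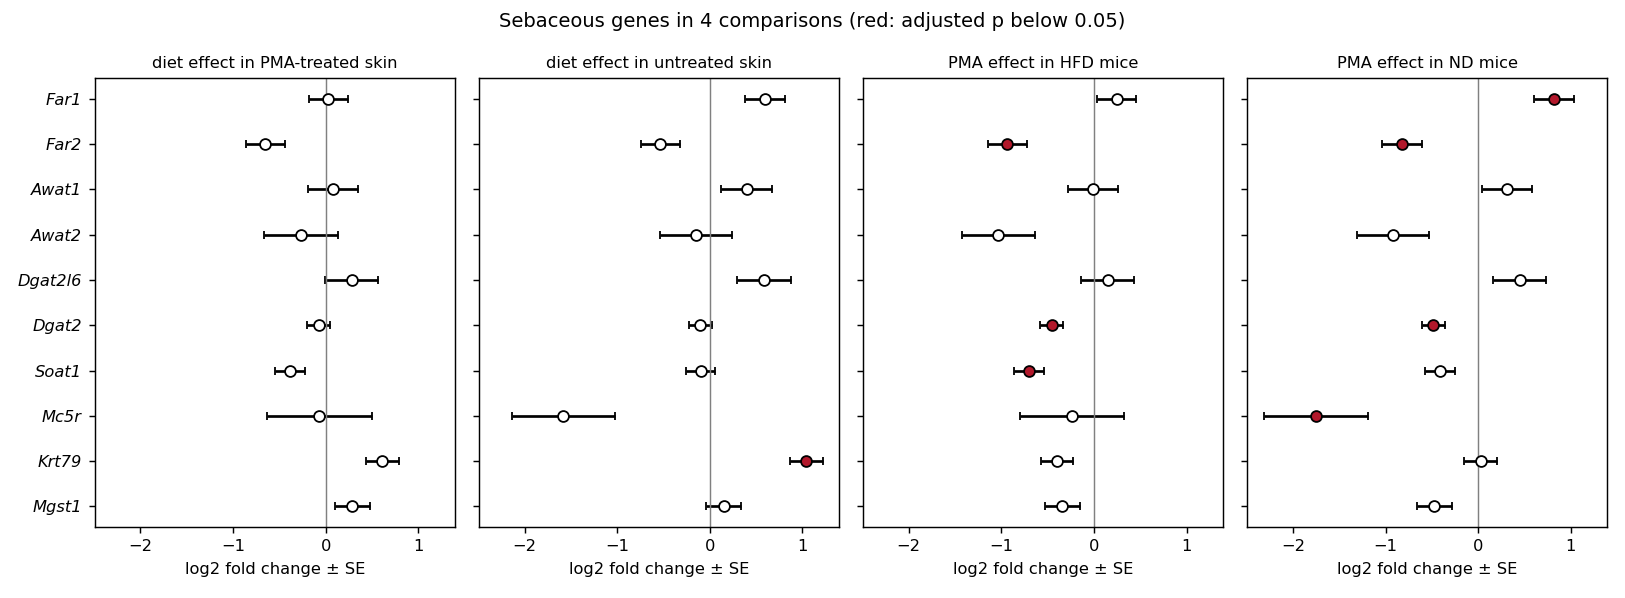
Log2 fold changes of the 10 sebaceous genes from edgeR in the 4 comparisons, with bars of 1 SE; filled points have an adjusted p below 0.05. Filled points are found for Far2 and Dgat2 under PMA in both diets, for Soat1 under PMA in HFD mice, for Far1 and Mc5r under PMA in ND mice and for Krt79 under diet in untreated skin.

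Far1 and Far2 encode the fatty acyl-CoA reductases that supply the alcohol of wax esters and of ether lipids. Far2 had 248, 217, 341 and 324 CPM in HFD_PMA libraries, against 662, 494, 592 and 413 CPM in HFD_cont libraries. In ND mice it had 381, 275, 575 and 540.3 CPM after PMA, against 739, 1044, 641 and 707 CPM untreated. All PMA-treated libraries lay below all untreated libraries of the same diet. The log2 fold change of Far2 under PMA was -0.94 ± 0.21 (SE; adjusted p = 0.00602) in HFD mice and -0.82 ± 0.21 (SE; adjusted p = 0.0126) in ND mice by edgeR. Without HFD_cont replicate 1, so that only RHP libraries were compared, the value in HFD mice was -0.83 (edgeR adjusted p = 0.0237). With the prefix as covariate the value in ND mice was -0.42 (edgeR adjusted p = 0.723). Between diets Far2 gave -0.65 ± 0.21 (SE; adjusted p = 0.120) in PMA-treated skin and -0.53 ± 0.21 (SE; adjusted p = 0.188) in untreated skin by edgeR, HFD over ND, and the diet groups overlapped in both. Far2 shares 837 exon bases with Ergic2 on the opposite strand, which had 9982 counts in all, and reads there cannot be assigned with certainty.

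Far1, the paralogue that is also needed for plasmalogens, rose with PMA in ND mice. It had 143, 59.2, 151.5 and 135 CPM in ND_PMA libraries, against 56.3, 85.7, 67.4 and 67.2 CPM in ND_cont libraries. Of the ND_PMA libraries 3 lay above all ND_cont libraries and replicate 2 lay among them. The log2 fold change was 0.82 ± 0.21 (SE; adjusted p = 0.0135) by edgeR, with an adjusted p of 0.0540 without ND_PMA replicate 3 and of 0.186 with the prefix as covariate (log2 fold change 1.08). In HFD mice Far1 had 121, 128, 106 and 142 CPM after PMA, against 120.0, 117, 91.9 and 90.5 CPM untreated. These groups overlapped, and the value of 0.25 ± 0.21 (SE; adjusted p = 0.535) was not past the threshold of edgeR. All 4 HFD_cont libraries lay above all 4 ND_cont libraries, and the diet value in untreated skin was 0.60 ± 0.21 (SE; adjusted p = 0.135) by edgeR, which missed the threshold as well. In fits of the 8 libraries of each comparison alone, the diet value was 0.61 and passed (edgeR adjusted p = 0.0293), and the PMA value in ND mice was 0.78 and did not (edgeR adjusted p = 0.0548). The interaction value of Far1, PMA effect in HFD minus that in ND mice, was -0.57 with a 95% interval of -1.20 to 0.05.

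The ratio of the Far2 to the Far1 level (RPKM), chosen after the values were seen, was 2.25, 1.86, 3.55 and 2.50 in HFD_PMA libraries and 2.94, 5.12, 4.18 and 4.41 in ND_PMA libraries. It was 6.08, 4.65, 7.10 and 5.02 in HFD_cont and 14.5, 13.4, 10.5 and 11.6 in ND_cont libraries. No PMA-treated library reached the lowest untreated library of its diet, and no HFD_cont library reached the lowest ND_cont library. Replicate 1 of HFD_cont, the one with prefix RHS, had 6.08, below all 4 ND_cont libraries of the same prefix. On the log2 scale the mean ratio differed under PMA by -1.19 in HFD mice and by -1.60 in ND mice, and under high-fat diet by -1.14 in untreated skin. For each of these 3 the two-sided exact permutation p was 0.0286, the smallest that 4 libraries against 4 can give, and 0.0571 after adjustment over 8 tests of 2 ratios. In PMA-treated skin the diet difference was -0.72 (exact permutation p = 0.0571, adjusted 0.0762), and 1 ND_PMA library lay within the HFD_PMA range. None of these adjusted values is below 0.05.

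**Figure D3:**
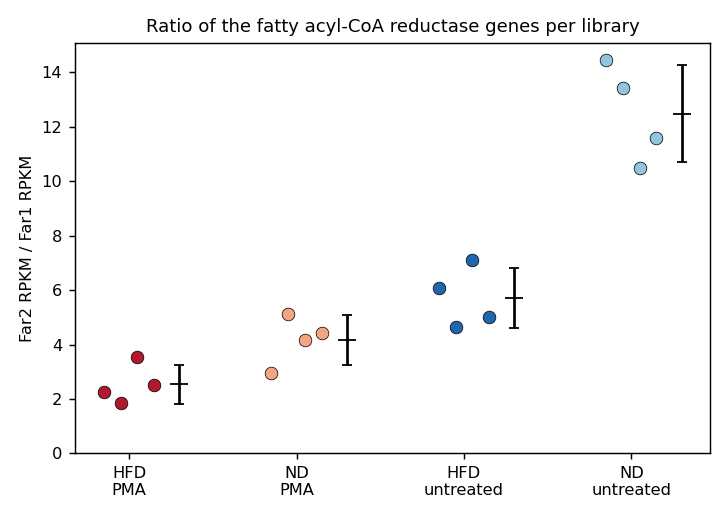
Ratio of Far2 RPKM to Far1 RPKM in each of 16 libraries (points) with group mean and SD. The ratio averaged 2.54 in HFD_PMA, 4.16 in ND_PMA, 5.71 in HFD_cont and 12.49 in ND_cont libraries.

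Awat1 and Awat2 encode acyl-CoA wax alcohol acyltransferases, which join alcohol and fatty acid into wax ester, and Dgat2l6 is a relative of theirs. Awat1 had 114, 198, 192 and 256 CPM in HFD_PMA libraries, against 202, 232, 157 and 173 CPM in HFD_cont libraries. In ND mice it had 149.8, 112, 219.5 and 237 CPM after PMA, against 159.8, 219, 109 and 92.1 CPM untreated. The groups overlapped widely, with replicates of 1 group differing by as much as the groups. Its log2 fold change under PMA had a 95% interval of -0.58 to 0.56 in HFD mice and of -0.26 to 0.88 in ND mice. It was called in 0 of 5 comparisons by edgeR and by DESeq2, and 0 had an unadjusted p below 0.05. Under high-fat diet the interval of Awat1 was -0.49 to 0.65 in PMA-treated and -0.17 to 0.97 in untreated skin.

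Awat2 was far scarcer than Awat1. It had 3.27, 5.01, 5.87 and 9.28 CPM in HFD_PMA libraries, against 11.5, 10.4, 19.9 and 5.76 CPM in HFD_cont libraries. In ND mice it had 6.30, 4.44, 10.8 and 6.48 CPM after PMA, against 11.5, 18.4, 15.9 and 7.07 CPM untreated. The groups overlapped in both diets. Values were -1.03 ± 0.40 (SE; adjusted p = 0.1004) in HFD and -0.92 ± 0.39 (SE; adjusted p = 0.139) in ND mice by edgeR, neither past the threshold. Without HFD_PMA replicate 4 the HFD value became -1.35 with an edgeR adjusted p of 0.0416. The ratio of the Awat2 to the Awat1 level (RPKM), also chosen after the values were seen, averaged 0.0258 ± 0.00593 in ND_PMA and 0.0619 ± 0.0227 in ND_cont libraries (SD, n = 4 each), with no overlap and an exact permutation p of 0.0286 that became 0.0571 after adjustment. In HFD mice it averaged 0.0197 after PMA and 0.0427 untreated, and those groups overlapped. Under diet the log2 fold change of Awat2 was -0.26 ± 0.40 (SE; adjusted p = 0.820) in PMA-treated and -0.15 ± 0.39 (SE; adjusted p = 0.909) in untreated skin by edgeR.

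Dgat2l6 ranged from 22.4 to 79.7 CPM over the 16 libraries and was called in 0 of 5 comparisons by edgeR and by DESeq2, with 0 unadjusted p below 0.05. Its group means were 59.5 ± 15.2 CPM in HFD_PMA, 48.9 ± 19.8 in ND_PMA, 53.6 ± 8.86 in HFD_cont and 35.7 ± 16.3 in ND_cont (SD, n = 4 each). The nearest to a call was the diet effect in untreated skin, at 0.59 ± 0.29 (SE; adjusted p = 0.314) by edgeR, with overlapping groups.

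Dgat2 makes triglyceride from diglyceride, in sebocytes and in fat cells alike. It had 597, 587, 751 and 741 CPM in HFD_PMA libraries, against 837, 905, 961 and 960.4 CPM in HFD_cont libraries. In ND mice it had 579.6, 773, 677 and 784 CPM after PMA, against 840.5, 1008, 1158 and 929.9 CPM untreated. Every PMA-treated library lay below every untreated library of its diet. Log2 fold changes were -0.45 ± 0.12 (SE; adjusted p = 0.0204) in HFD mice and -0.48 ± 0.12 (SE; adjusted p = 0.0121) in ND mice by edgeR. The HFD call was lost without HFD_PMA replicate 1 (adjusted p = 0.0706 by edgeR) or 2 (0.0788), or without HFD_cont replicate 3 (0.0601) or 4 (0.0571), and the ND call without ND_PMA replicate 1 (0.0504). With the prefix as covariate Dgat2 in ND mice had -0.66 (edgeR adjusted p = 0.197). Fat cell markers moved with it: 6 of 9 were called lower with PMA in HFD and 7 of 9 in ND mice, and their summed level was 314 to 475 CPM in HFD_PMA, 480.2 to 688 in ND_PMA, 600.1 to 916 in HFD_cont and 865 to 1184 in ND_cont libraries, with 0 markers at 0. Their part in the Dgat2 result was not tested. Between diets Dgat2 gave -0.07 ± 0.12 in PMA-treated and -0.10 ± 0.12 in untreated skin (log2, SE).

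Soat1 attaches a fatty acid to cholesterol. It had 159.9, 137, 144 and 184 CPM in HFD_PMA libraries, against 318, 261, 231 and 203 CPM in HFD_cont libraries. In ND mice it had 180.0, 166, 227 and 241 CPM after PMA, against 282, 331, 204 and 269 CPM untreated. The groups were apart in HFD mice and overlapped in ND mice. Values were -0.70 ± 0.16 (SE; adjusted p = 0.00708) in HFD mice, which passed, and -0.42 ± 0.16 (SE; adjusted p = 0.102) in ND mice, which did not pass the edgeR threshold. Without HFD_cont replicate 1, so that only RHP libraries were compared, the HFD value was -0.57 (edgeR adjusted p = 0.0305). Without ND_cont replicate 3 the ND value was -0.56 and passed (edgeR adjusted p = 0.0271), as it did with the stricter filter (-0.47, edgeR adjusted p = 0.0376) and by DESeq2 (-0.46, adjusted p = 0.0359). With the prefix as covariate it was 0.04 (edgeR adjusted p = 0.975). A difference between diets in the PMA effect on Soat1 was not detected, since the interaction value was -0.28 with a 95% interval of -0.76 to 0.19. Macrophages also use Soat1, and of 7 macrophage markers 2 were called higher with PMA in HFD and 3 in ND mice. Summed macrophage markers were 336 to 614 CPM in HFD_PMA, 573 to 916 in ND_PMA, 304 to 441 in HFD_cont and 448 to 558 in ND_cont libraries, with 0 markers at 0, and their part in the Soat1 result was not tested. Diet gave Soat1 values of -0.38 ± 0.16 (SE; adjusted p = 0.246) in PMA-treated and -0.10 ± 0.16 (SE; adjusted p = 0.839) in untreated skin by edgeR.

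Mc5r, the melanocortin receptor whose loss reduces sebum in mice, was the scarcest member, with 5 to 71 counts per library. It lies on chromosome 18 at 68337596 to 68342446 (GRCm38). It had 1.24, 0.322, 2.10 and 2.47 CPM in ND_PMA libraries, against 3.83, 6.72, 3.56 and 6.51 CPM in ND_cont libraries. In HFD mice it had 1.25, 1.67, 1.72 and 1.13 CPM after PMA, against 1.61, 3.09, 0.944 and 1.19 CPM untreated. The 4 ND_cont libraries stood above the other 12, while the HFD groups overlapped. The PMA effect was -1.76 ± 0.56 (SE; adjusted p = 0.0439) in ND mice and -0.24 ± 0.56 (SE; adjusted p = 0.861) in HFD mice by edgeR. The ND call was lost without any one of ND_PMA replicates 1, 2 or 3 or ND_cont replicates 1, 2 or 4, with adjusted p from 0.0548 to 0.113 by edgeR, and with the prefix as covariate (log2 fold change -1.88, adjusted p = 0.508). With the replicate number as a block the edgeR adjusted p was 0.0835. Diet in untreated skin gave -1.58 ± 0.56 (SE; adjusted p = 0.132) by edgeR, not past the threshold although the groups did not overlap. The interaction value was 1.52 with a 95% interval of -0.14 to 3.17. All 4 ND_cont libraries carry prefix RHS, and the 1 HFD_cont library with that prefix had 1.61 CPM, below each of them.

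Krt79 rose with high-fat diet in untreated skin. It had 1338, 1173, 1133 and 1149 CPM in HFD_cont libraries, against 511, 795, 603 and 419.6 CPM in ND_cont libraries. In PMA-treated skin it had 946, 791, 924 and 969.9 CPM in HFD_PMA libraries, against 436, 482, 757 and 699 CPM in ND_PMA libraries. In both settings every HFD library lay above every ND library. The log2 fold change was 1.04 ± 0.18 (SE; adjusted p = 0.00204) in untreated skin, which passed, and 0.61 ± 0.18 (SE; adjusted p = 0.0769) in PMA-treated skin, which missed the edgeR threshold and passed with the stricter filter (edgeR adjusted p = 0.0373) and by DESeq2 (adjusted p = 0.00977). With the library prefix as covariate the untreated value was 1.20 (edgeR adjusted p = 0.0300). With only RHS libraries compared, 1 HFD_cont against 4 ND_cont, it was 1.23. That fit kept the PMA-treated libraries, and the lone library was taken to vary like the others. All 6 epidermal keratinocyte markers were called higher with diet in untreated skin, summing to 20058 to 24577 CPM in HFD_cont and 12258 to 16708 CPM in ND_cont libraries, and 2 of 6 in PMA-treated skin, where they summed to 25506 to 28255 CPM in HFD_PMA and 19828 to 22977 CPM in ND_PMA libraries. None of these markers was at 0, and their part in the Krt79 result was not tested. Under PMA Krt79 gave -0.40 ± 0.18 (SE; adjusted p = 0.165) in HFD mice and 0.03 ± 0.18 (SE; adjusted p = 0.948) in ND mice by edgeR, so neither passed, though the HFD groups did not overlap. With the 8 HFD libraries alone the value was -0.41 and passed (edgeR adjusted p = 0.00924). The interaction value was -0.43 with a 95% interval of -0.95 to 0.09.

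Mgst1, a membrane glutathione transferase used as a sebocyte marker in mouse skin, was called in 0 of 5 comparisons by edgeR, with 1 unadjusted p below 0.05, and in 1 by DESeq2. Its group means were 139.5 ± 18.6 CPM in HFD_PMA, 114 ± 11.4 in ND_PMA, 177 ± 26.6 in HFD_cont and 159 ± 57.9 in ND_cont (SD, n = 4 each). The PMA value in ND mice was -0.48 ± 0.19 (SE; adjusted p = 0.110) by edgeR and passed without ND_cont replicate 3 (adjusted p = 0.0421) or 4 (0.0344). In HFD mice it was -0.34 ± 0.19 (SE; adjusted p = 0.288) by edgeR.

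Within groups most pairs of members rose and fell together from mouse to mouse. Pearson's r was computed over 16 libraries on log2 CPM after subtracting each group's mean, as a description, since all values of a library share its depth and its piece of skin. Leaving Dgat2 aside, a choice made after its values were seen, 35 of 36 pairs had a positive r. Their median was 0.578 and their lowest -0.079, for Mc5r with Mgst1. The r of Dgat2 with the other 9 ran from -0.25 to 0.36. That range also held other pairs, such as Awat2 with Mc5r (0.138) and Far1 with Mgst1 (0.148). The share of positive r over pairs of all genes was not computed. The highest r was that of the X-linked neighbours Awat1 and Dgat2l6, at 0.872 (Spearman's rho = 0.888). It was 0.881 without the 2 libraries farthest from the median of Awat1. Far2 and Soat1 reached 0.784 (rho = 0.847) and Far1 and Mc5r 0.779 (rho = 0.635). ND_PMA replicate 2, with 5 counts of Mc5r, had the lowest deviation of both Far1 (-0.95) and Mc5r (-1.52). Igbp1, which lies between Awat2 and Dgat2l6 on chromosome X and is not a member, had 12206 counts over all libraries. Otud6a, which lies within the span of Awat2 on the other strand, had 4.

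**Figure D4:**
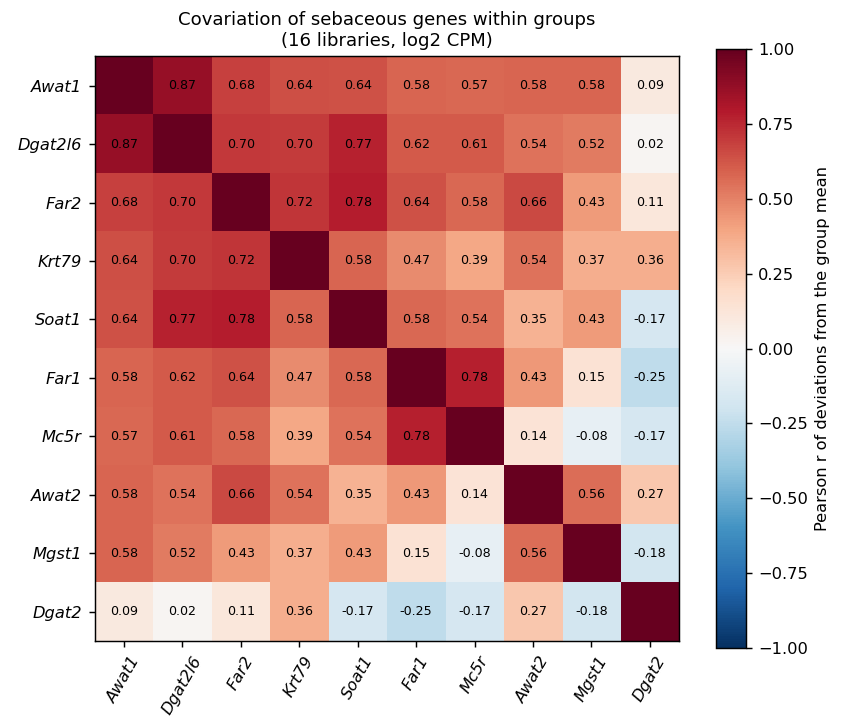
Pearson's r between the 10 sebaceous genes over 16 libraries, from log2 CPM with each group's mean subtracted (colour scale from -1 to 1). Awat1 and Dgat2l6 share the highest value, 0.872, and the row of Dgat2 stays between -0.25 and 0.36.

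Among 11624 other genes, those most like the mean of Awat1, Awat2, Dgat2l6, Mc5r and Krt79 in these within-group deviations were Cers4 (r = 0.922), a ceramide synthase, and Elovl4 (0.912), which elongates very long fatty acids. Hsd17b7 (0.910) and Msmo1 (0.891), both enzymes of cholesterol synthesis, were in the first 8 as well, with Sdr16c6 (0.906), Ifrd1 (0.906), Dram2 (0.895) and the peroxisome assembly gene Pex3 (0.893). The 99th percentile of r over all candidates was 0.733. By Spearman's rho 4 of these 8 stayed among the first 8. Elovl3, an elongase of the sebaceous gland, had r = 0.848 and the lipid droplet protein Plin2 0.810. Over the 15 genes of sebaceous lipid synthesis and droplets r ran from -0.29 for Fads1 to 0.912 for Elovl4, with a median of 0.517, and 12 were above 0 and 3 below. Over all candidates the median r was 0.03 and the 95th percentile 0.58, which is above the median of these 15.

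The other genes of sebaceous fatty acid synthesis and lipid droplets fell with PMA where they were called. Of 15 tested, 5 were called lower and 0 higher in HFD mice, and 5 lower and 0 higher in ND mice. DESeq2 called 8 and 6 of them lower. Their median log2 fold change was -0.62 in HFD and -0.44 in ND mice, beside -0.02 and 0.00 over all genes. Of all genes edgeR called 4.6% lower and 7.34% higher in HFD mice, and 3.99% lower and 8.96% higher in ND mice. Scd1, the stearoyl-CoA desaturase of sebocytes, averaged 2053 ± 399.5 CPM in HFD_PMA and 4629 ± 505 CPM in HFD_cont libraries (SD, n = 4 each), a log2 fold change of -1.17 ± 0.16 (SE; adjusted p = 9.9e-05) by edgeR. In ND mice the values of Scd1 were 2971 ± 619.9 CPM after PMA and 6380.3 ± 1096 CPM untreated, giving -1.10 ± 0.16 (SE; adjusted p = 0.000110). Fads1, a fatty acid desaturase, gave -1.14 ± 0.24 and the elongase Elovl6 -0.98 ± 0.28 in HFD mice (log2, SE), and Elovl6 lost its call without HFD_PMA replicate 1 or 2 or HFD_cont replicate 1 or 3 (edgeR adjusted p from 0.0585 to 0.0846). In ND mice Scd3 gave -2.01 ± 0.43 (SE; adjusted p = 0.00345) and the elongase Elovl5 -1.17 ± 0.14 (SE; adjusted p = 1.24e-05) by edgeR. The fat cell markers described for Dgat2 moved with these genes, and many of these genes are also used by fat cells. Their part in the fall was not tested. With the prefix as covariate 1 of the 15 was called lower in ND mice, Elovl5 at -1.23 (edgeR adjusted p = 0.0235), beside -2.51 for Scd3 (0.173) and -0.85 for Scd1 (0.198). Without the 4 libraries highest in hair markers, which leaves 1 HFD_cont library, Scd1 had -1.15, Fads1 -0.999 and Elovl6 -1.14 in HFD mice.

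With diet 2 of the 15 were lower in untreated skin, Elovl5 and Scd3, and 2 in PMA-treated skin, Elovl5 and Fads1, and 0 were higher in either by edgeR. Of all genes 1.06% were called lower and 2.87% higher in untreated skin, and 1.26% lower and 0.943% higher in PMA-treated skin. In untreated skin Elovl5 gave -0.94 ± 0.14 (SE; adjusted p = 0.000587) and Scd3 -1.81 ± 0.43 (SE; adjusted p = 0.0212) by edgeR. Scd3 lost its call without HFD_cont replicate 1 or 3 or ND_cont replicate 2 or 3 (edgeR adjusted p from 0.0513 to 0.0697), and with the prefix as covariate neither was called, at -2.20 for Scd3 (edgeR adjusted p = 0.252) and -0.99 for Elovl5 (0.0579). In PMA-treated skin Fads1 gave -1.31 ± 0.24 (SE; adjusted p = 0.00828) and Elovl5 -0.60 ± 0.14 (SE; adjusted p = 0.0278) by edgeR, and Elovl5 lost its call without HFD_PMA replicate 1, 2 or 3 or ND_PMA replicate 3 or 4 (adjusted p from 0.0778 to 0.103). Without the 4 libraries highest in hair markers, untreated skin had -2.14 for Scd3 and -0.68 for Elovl5. PMA-treated skin had -1.15 for Fads1 and -0.56 for Elovl5 in that fit, which leaves 1 HFD_cont library. The interaction called 0 of the 15 by edgeR and by DESeq2, with 1 unadjusted p below 0.05.

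**Figure D5:**
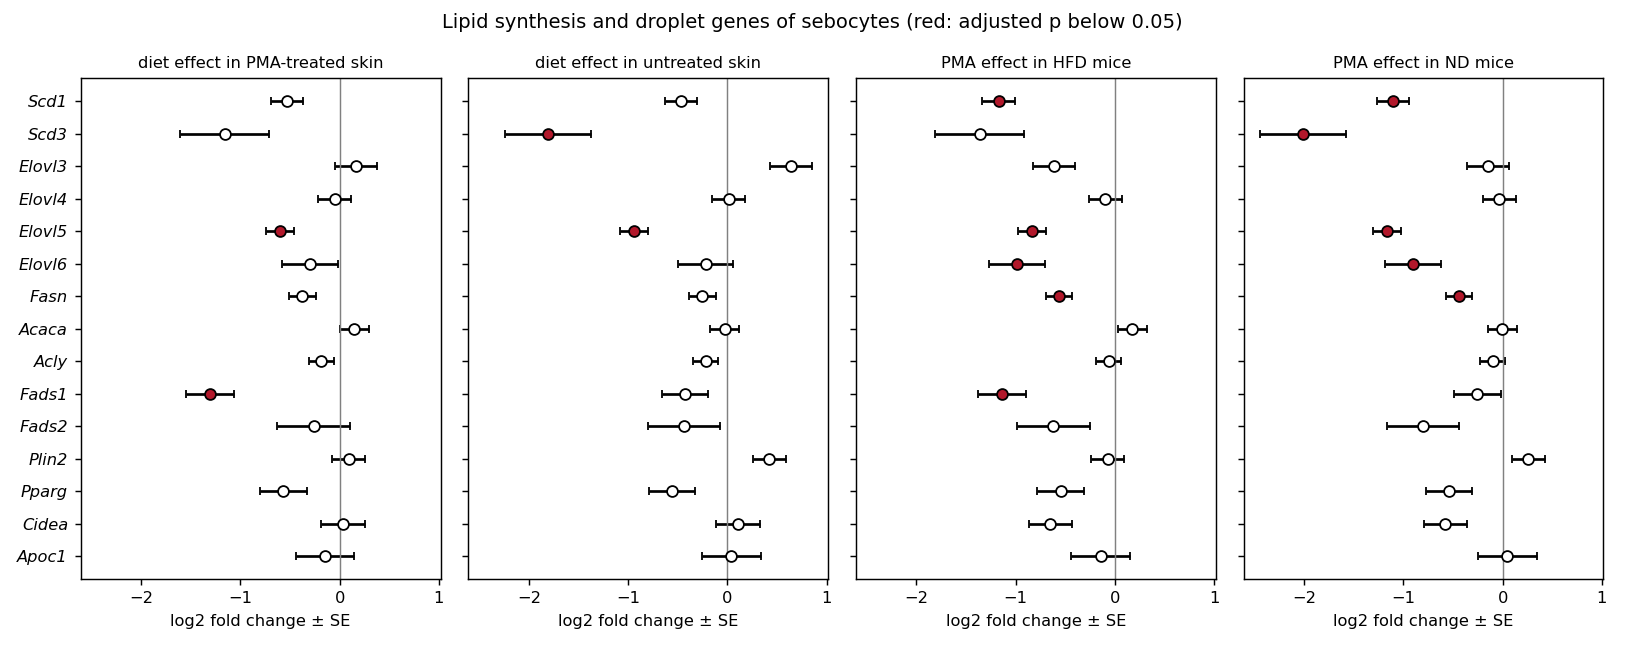
Log2 fold changes from edgeR of the 15 other genes of sebaceous lipid synthesis and lipid droplets in the 4 comparisons; filled points have an adjusted p below 0.05. Each PMA comparison has 5 filled points and each diet comparison 2, all below 0.

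Among 9 genes of the upper follicle and sebaceous duct, where Krt79 is made, Plet1, a surface protein of the follicle junction, rose with diet in both settings. It averaged 54.1 ± 4.79 CPM in HFD_cont and 25.8 ± 10.2 CPM in ND_cont libraries (SD, n = 4 each), 1.07 ± 0.22 (SE; adjusted p = 0.00728), and gave 0.99 ± 0.21 (SE; adjusted p = 0.0172) in PMA-treated skin by edgeR, where the call was lost without HFD_PMA replicate 2 (adjusted p = 0.0536) or ND_PMA replicate 4 (0.0573). Plet1 shares 261 exon bases with its antisense gene. In untreated skin the defensin Defb6 also rose with diet, at 1.37 ± 0.32 (SE; adjusted p = 0.0186), and was not called without HFD_cont replicate 1 or ND_cont replicate 4 (edgeR adjusted p = 0.0808 and 0.0616). With the prefix as covariate Plet1 in untreated skin had 1.13 (edgeR adjusted p = 0.118). Without the 4 libraries highest in hair markers, Plet1 had 0.92 in untreated and 1.02 in PMA-treated skin, and Defb6 1.10 in untreated skin. That setting leaves 1 HFD_cont library. With PMA 0 of the 9 were called in HFD mice by edgeR and by DESeq2, with 2 unadjusted p below 0.05. Of all genes edgeR called 4.6% lower and 7.34% higher there.

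Of 7 genes listed for the release of fatty acids from neutral lipid, 3 were called lower with PMA and 0 higher in each diet by edgeR. DESeq2 called 3 lower and 1 higher in HFD mice, and 4 lower and 0 higher in ND mice. Of all genes edgeR called 4.6% lower and 7.34% higher in HFD mice, and 3.99% lower and 8.96% higher in ND mice. The fat cell markers moved with the genes called lower too. With the prefix as covariate 0 were called in ND mice, at log2 fold changes of -1.52 for Ces1d (edgeR adjusted p = 0.0672), -0.99 for Pnpla2 (0.140) and -0.95 for Lipe (0.146). Over all genes 65 were called lower there. Ces1d, a carboxylesterase of fat cells, gave -1.40 ± 0.21 (SE; adjusted p = 0.000246) in HFD and -1.55 ± 0.21 (SE; adjusted p = 4.3e-05) in ND mice by edgeR. In HFD mice Mgll, the monoglyceride lipase, gave -1.07 ± 0.20 (SE; adjusted p = 0.00111), and the triglyceride lipase Pnpla2 gave -0.74 ± 0.17 (SE; adjusted p = 0.00667) by edgeR. Without the 4 libraries highest in hair markers, which leaves 1 HFD_cont library, Mgll had -0.93, Pnpla2 -0.70 and Ces1d -1.73. In ND mice Pnpla2 (-0.62, not called without ND_PMA replicate 3 or ND_cont replicate 3, at edgeR adjusted p = 0.0577 and 0.0786) and hormone-sensitive lipase Lipe (-0.58, not called without ND_PMA replicate 1 or 4 or ND_cont replicate 3, at 0.0595 to 0.0977) were lower. With diet 1 of the 7 was lower in untreated skin, Ces1d at -0.96 ± 0.21 (SE; adjusted p = 0.0115) by edgeR. It was not called with the prefix as covariate (-0.94, edgeR adjusted p = 0.293). Settings that leave 1 HFD_cont library gave Ces1d -0.91 (only RHS libraries compared) and -0.72 (without the 4 libraries highest in hair markers). With diet 0 of the 7 were called in PMA-treated skin by edgeR, where 2 had an unadjusted p below 0.05 and DESeq2 called 1. Of all genes edgeR called 1.06% lower with diet in untreated skin and 1.26% in PMA-treated skin.

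Of the other acyltransferases of neutral lipid, 6 of 7 could be tested and 0 were called in any comparison by edgeR or DESeq2. An unadjusted p below 0.05 was found for 1 under PMA in ND mice and 2 under diet in untreated skin. Over all genes the share called by edgeR in a direction ran from 0%, for the interaction, to 8.96%, higher with PMA in ND mice. Beside such shares, 0 calls among 6 genes do not set these genes apart. Dgat1, which also makes triglyceride, had 163 ± 21.2 CPM in HFD_PMA, 161 ± 33.8 in ND_PMA, 139 ± 14.6 in HFD_cont and 145 ± 21.1 in ND_cont libraries (SD, n = 4 each). Of 6 ether lipid genes, which use the alcohol made by Far1, 1 was called, Tmem189, the plasmalogen desaturase, lower with PMA in HFD mice at -0.91 ± 0.21 (SE; adjusted p = 0.00593) by edgeR. Its exons overlap those of Cebpb on the opposite strand by 312 bases and those of Gm20431 on the same strand by 694 bases. Gm20431 had 0 counts in all, and reads on the shared bases cannot be assigned with certainty. Among 5 relatives of Mgst1, Ptges, the prostaglandin E synthase, was called higher with PMA in HFD mice at 0.71 ± 0.12 (SE; adjusted p = 0.000535) and in ND mice at 0.89 ± 0.12 (SE; adjusted p = 4.05e-05) by edgeR, and the other 4 were not called. Without the 4 libraries highest in hair markers, which leaves 1 HFD_cont library, the HFD values were 0.65 for Ptges and -0.87 for Tmem189. Of 9 listed melanocortin genes besides Mc5r, 1 had enough counts to be tested, the receptor accessory gene Mrap, and it was not called.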

How the data were processed

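Ear skin RNA of 16 mice was sequenced. Per the labels' protocols, 2 ng of RNA went into SMART-Seq2 cDNA and Nextera XT libraries, read in pairs. That method records neither strand nor molecular identifiers, so PCR copies are counted and reads of overlapping genes on opposite strands cannot be told apart. The authors deposited a table of raw counts per gene with a gene length. STAR 2.3, featureCounts 1.5 and the build GRCm38 are named per the submitters' processing notes, and the sources used here do not state the annotation release or strand setting. Groups came from the diet and treatment labels.

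Genes were kept by filterByExpr (minimum count 10, minimum total 15), scaled with TMM factors and tested by the quasi-likelihood method of edgeR 4.0.16 (R 4.3.3, robust) in 1 fit of 4 group means without covariates, with Benjamini-Hochberg adjustment over 17604 genes and a threshold of 0.05. SE is the absolute log2 fold change over the square root of F. RPKM used the deposited length. Log2 CPM for correlations used a prior count of 2. The 2 ratios were compared by exact permutation tests. The fit was tested on simulated data. DESeq2 1.42.0, other scalings and filters, covariates and left-out libraries were alternatives.

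The members, the lists and the tests were chosen with earlier results of these data known. From each of the 7 lists and each comparison, up to 3 called genes with the largest change and a mean of at least 5 CPM were named. For likeness the 8 genes with the highest r were. Genes named outside this rule (Elovl3, Plin2, Dgat1 and Mrap) were chosen after their values were seen. Library totals were 7739487 to 15571389 counts, so members near 1 CPM, such as Mc5r, rest on few counts. Counts of any pair of replicates differed beyond sampling noise, the smallest chi-square per degree of freedom being 9.40. One listed gene that this rule names is not reported here.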

Additional observations from a re-analysis of the deposited data

How the results depend on the processing

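Members called by edgeR numbered 0 for diet in PMA-treated skin, 1 for diet in untreated skin, 3 for PMA in HFD mice, 4 for PMA in ND mice and 0 for the interaction. Leaving out 1 library at a time gave 0 to 0, 1 to 1, 2 to 4, 2 to 6 and 0 to 0. For diet in PMA-treated skin DESeq2 and the stricter filter each gave 1. For diet in untreated skin the 8 libraries alone gave 2, the RHS libraries 0 and leaving out the 4 libraries highest in hair markers 0. For PMA in HFD mice the last gave 0. For PMA in ND mice the prefix as covariate gave 0 and the 8 libraries alone 2. The hair and RHS settings use fewer libraries and leave 1 HFD_cont library, taken to vary like the others, and the setting with hair libraries left out was chosen after seeing the data. The RHS setting left out only HFD_cont libraries of prefix RHP, so the PMA-treated libraries stayed in its fit. No member or named gene changed sign in any setting in a comparison where the main fit called it. Where the main fit made no call some signs did change. For Soat1 under PMA in ND mice the value was -0.42 in the main fit and 0.04 with the prefix as covariate. Of the 4 same-numbered pairs of libraries in each of the 4 comparisons, 0, 0, 2 and 0 had r over 0.1. The highest r was 0.20, for HFD_PMA with HFD_cont, so a pairing there was not excluded. With the replicate number as a block the members called were 0, 1, 3, 3 and 0.

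Counts of calls over all genes moved from those of the main edgeR fit in the settings below, many by over 1.5 times. The cause was not tested. For diet in PMA-treated skin, with 166 genes higher and 221 lower, DESeq2 called 446 and 404, the 8 libraries alone gave 118 and 57, and leaving out the hair-rich libraries gave 62 and 37. For diet in untreated skin, with 505 higher and 186 lower, DESeq2 called 776 and 366, the prefix covariate gave 163 and 16, the RHS libraries 125 and 7, and leaving out the hair-rich libraries 21 and 1. There, no low-count filter gave 115 lower and the 8 libraries alone 280 lower. For PMA in HFD mice, with 1292 higher and 809 lower, leaving out the hair-rich libraries gave 124 and 32. For PMA in ND mice, with 1577 higher and 702 lower, the prefix covariate gave 388 and 65, and DESeq2 called 1146 lower. For the interaction the settings gave 0 to 4 genes higher and 0 to 17 lower. Leaving out 1 library at a time gave as few as 63 higher and 53 lower for diet in PMA-treated skin, 260 and 68 for diet in untreated skin, 763 and 442 for PMA in HFD mice, and 1185 and 504 for PMA in ND mice. No scaling moved the median of all genes by over 0.1 on the log2 scale. Mc5r, at 5 to 71 counts, is limited by depth.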
